A study of Mus musculus with 3 samples.

Results

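The vitamin D receptor and 7 genes that work with it were followed through 3 single-cell RNA libraries of mouse dorsal skin. The 8 genes were taken by name, as the receptor *Vdr*, its heterodimer partners *Rxra* and *Rxrb*, its cofactors *Hr*, *Med1* and *Ncor1*, and the vitamin D enzymes *Cyp24a1* and *Cyp27b1*, out of 19927 gene symbols in the matrices. The rule uses no measured value, although earlier results of these data were known when it was set. Of the libraries, 2 (control 1 and control 2) came from *Vdr* flox/flox mice, and 1 came from *Vdr* flox/flox; Krt14cre mice and is labelled *Vdr* cKO. All were made from male skin at postnatal day 18, every group carries the floxed *Vdr* alleles, and the methods state that 3 mice were pooled for each library. The promoter of *Krt14*, a keratin gene of basal and outer root sheath keratinocytes, drives the Cre, so that cells outside the *Krt14* lineage keep the gene. Barcodes with fewer than 200 detected genes or over 20% mitochondrial counts were left out, after which control 1 held 1480 cells, control 2 held 1658 and the library labelled *Vdr* cKO held 2622. This removed 1308 of 2788, 802 of 2460 and 160 of 2782 barcodes in that order. Levels are given below as CPM, the count of a gene per 1000000 counts of all genes in the kept cells of a library.

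The vitamin D receptor is a nuclear receptor that binds DNA as a heterodimer with a retinoid X receptor, which *Rxra* and *Rxrb* encode. Calcitriol, its hormone, is made by the product of *Cyp27b1* and broken down by that of *Cyp24a1*, a target gene of the receptor in many tissues. In skin the receptor also acts on the hair cycle, and mice without functional *Vdr* or *Hr*, which encodes the corepressor hairless, lose their hair after the first coat. *Med1* encodes the Mediator subunit through which ligand-bound nuclear receptors contact the transcription machinery, and *Ncor1* encodes a corepressor that brings histone deacetylase to unliganded receptors.

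The paper states that Cre removes exon 3 of the floxed *Vdr* allele, and its text names no transcript or coordinates. *Vdr* (ENSMUSG00000022479.15) lies at chr15:97854425-97910630 on the minus strand of GRCm38 in GENCODE M21. In its transcript Vdr-201 of 4370 bases, exon 3 lies at chr15:97884794-97884941. It carries the start codon and codes for the first part of the DNA-binding domain. That the floxed exon is this one was taken from its number alone. The coding bases of exon 3 of Vdr-201 are shown because the counts cannot see their loss, with the start codon in capitals.

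Vdr exon 3, coding bases, 5′ to 3′: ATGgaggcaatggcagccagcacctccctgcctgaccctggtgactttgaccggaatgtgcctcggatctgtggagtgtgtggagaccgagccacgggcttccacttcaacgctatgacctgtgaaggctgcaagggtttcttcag

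These 146 bases end 4070 bases before the 3′ end of the transcript, while the last exon alone holds 3207 bases. The droplet method primes on the poly(A) tail and reads near the 3′ end, so a transcript without exon 3 can still be counted as *Vdr*. The *Vdr* count therefore checks neither the label nor the deletion. No result below shows how much functional receptor the cells of any library had.

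*Vdr* was counted at 40.7 CPM in control 1, with a 95% exact Poisson interval of 37.9 to 43.7. In control 2 it was at 35.9 CPM (33.7 to 38.2). In the library labelled *Vdr* cKO it was at 80.8 CPM (77.7 to 84.0), so that the level was higher than in both controls. The library is therefore named by its label throughout. The ratio was 1.99 against control 1 and 2.25 against control 2, and after adding 1 CPM the log2 fold against the average of the controls was 1.06. The controls differed from each other by a ratio of 1.13. These intervals cover counting error only. They are too narrow where 1 molecule was copied and counted several times, since 1 cell of control 1 held 17.1% of all *Vdr* counts of that library, and the largest share of 1 cell was 12.04% in control 2 and 4.24% in the library labelled *Vdr* cKO.

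Shares of cells are less open to such copies. Every cell was therefore drawn at random down to 1000 counts, and cells with a *Vdr* count were tallied. They made up 1.30% of 1466 cells in control 1 (95% exact Clopper-Pearson interval 0.78 to 2.02%) and 2.19% of 1597 cells in control 2 (1.53 to 3.03%). They made up 4.37% of 2562 cells in the library labelled *Vdr* cKO (3.61 to 5.24%). The interval of that library lay above those of both controls, which overlapped each other. Without thinning, the shares were 3.18%, 5.91% and 12.7% in the same order, at median depths of 4190, 4492.5 and 4055 counts per cell. No cell type known to lack *Vdr* could be set apart to measure free RNA. In the barcodes left out, *Vdr* was at 54.3 CPM (41.6 to 69.6) in control 1, from 62 counts. It was at 34.45 CPM (20.7 to 53.8) in control 2, from 19 counts. The library labelled *Vdr* cKO had 1 count there, or 7.93 CPM (0.20 to 44.2), an interval that overlapped those of both controls. These barcodes held 1141347, 551524 and 126039 counts of all genes in the 3 libraries, in the same order. Whether the *Vdr* counts in them come from free RNA was not tested.

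Because cells labelled *Vdr* cKO also showed more genes each, with a median of 688.5 against 377 and 502 in the controls, *Vdr* was also scaled to the sum of gene detections of a library (each gene counted once per cell, on the scale of CPM). It then stood at 57.1 in control 1, 72.4 in control 2 and 127 in the library labelled *Vdr* cKO, again above both controls. The spread between the 2 controls is the only measure of variation between libraries, and with 1 library of that genotype no test was made as the main result. The edgeR quasi-likelihood test on the library sums, which takes that lone library to vary like the controls, gave *Vdr* a log2 fold of 1.02 with a Benjamini-Hochberg adjusted p of 0.34, and DESeq2's Wald test gave 1.01 with an adjusted p of 0.38.

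The partners did not move together. *Rxra*, which encodes the retinoid X receptor alpha (ENSMUSG00000015846.14, chr2:27676440-27762957, plus strand), was counted at 173 and 150.5 CPM in the 2 controls, in that order, against 123 CPM in the library labelled *Vdr* cKO. That library was the lowest, with a log2 fold of -0.38. The share of thinned cells with an *Rxra* count was nearly the same in all of them, at 7.16%, 7.08% and 6.60%, and its intervals overlapped (5.90 to 8.60%, 5.87 to 8.45% and 5.67 to 7.63%). Scaled to the gene detections of the library, as for *Vdr*, *Rxra* stood at 264, 243 and 190, again lowest in the library labelled *Vdr* cKO.

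*Rxrb*, which encodes the beta form (ENSMUSG00000039656.17, chr17:34031812-34038399, plus strand), was counted at 20.1 and 11.96 CPM in the 2 controls, in that order, against 34.1 CPM in the library labelled *Vdr* cKO. The log2 fold was 1.04, but the controls differed from each other by a ratio of 1.68, so that the library labelled *Vdr* cKO was 2.85-fold over control 2 and 1.70-fold over control 1. Thinned cells with an *Rxrb* count made up 0.82%, 0.81% and 1.87% in the same order, and the interval of the last (1.38 to 2.48%) touched those of the controls (up to 1.43% and 1.39%). One cell held 27.5% of the *Rxrb* counts of control 1.

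Among the cofactors, *Hr* (ENSMUSG00000022096.14, chr14:70552212-70573548, plus strand) was at 142 and 188 CPM in the 2 controls, in that order, against 179.5 CPM in the library labelled *Vdr* cKO, between the controls. Thinned cells with an *Hr* count made up 7.30%, 8.89% and 10.6%, and the interval of the last (9.41 to 11.8%) overlapped that of control 2 (7.54 to 10.4%). Scaled to the gene detections of the library, *Hr* stood at 259, 283 and 288. By both measures the library labelled *Vdr* cKO was thus highest. *Med1* (ENSMUSG00000018160.15, chr11:98152154-98193293, minus strand) was at 42.4, 47.3 and 38.8 CPM in that order, a log2 fold of -0.20. That difference had no stable direction: the mean over cells of each cell's CPM gave 24.4, 28.4 and 47.0, with the library labelled *Vdr* cKO highest, and 1 cell held 20.5% of the *Med1* counts of control 1.

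*Ncor1* (ENSMUSG00000018501.17, chr11:62316426-62458541, minus strand) was at 321 and 338 CPM in the 2 controls, in that order, against 319 CPM in the library labelled *Vdr* cKO. The 3 levels lay close together, and the log2 fold of -0.04 was far smaller than the median control difference of 0.32 among all genes. Thinned cells with an *Ncor1* count made up 9.96%, 12.1% and 17.8%, an order that the CPM did not show. Scaled to the gene detections of the library in the same way, *Ncor1* stood at 328, 338 and 383. The ends of *Ncor1* overlap *Ttc19* and *Pigl* on the opposite strand, and whether the counting used the strand is not given in the sources used here.

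**Figure D1:**
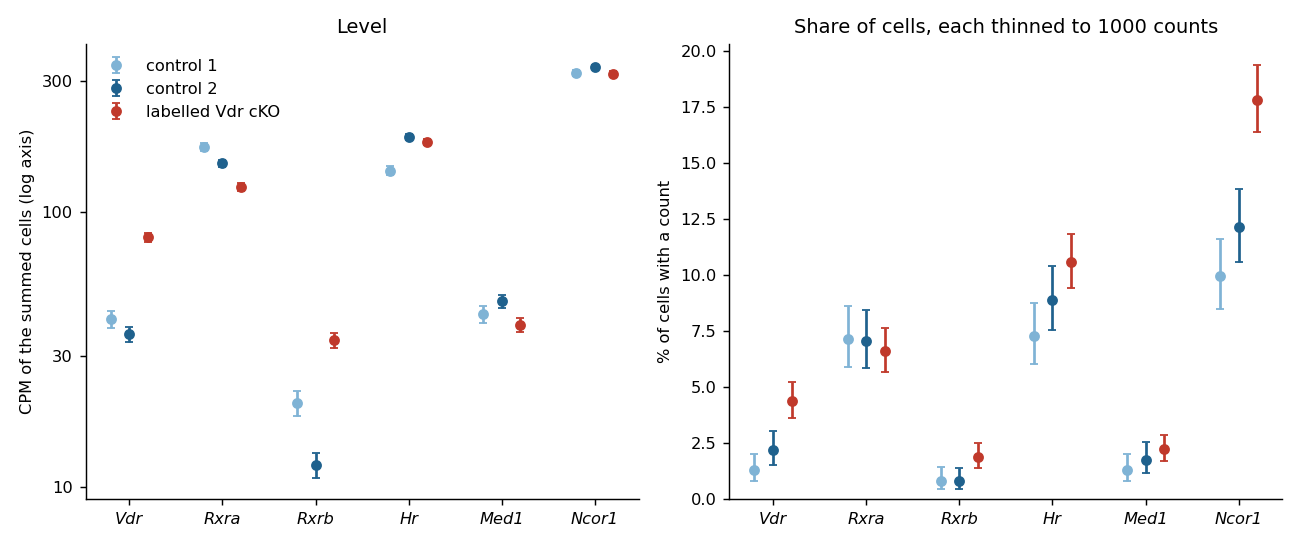
Levels and shares of the 6 genes with a mean of at least 20 CPM over the 3 libraries. Left, CPM of the summed cells on a log axis with 95% exact Poisson intervals, and right, the percentage of cells with a count after each cell was thinned to 1000 counts, with 95% exact Clopper-Pearson intervals. *Vdr* was at 40.7 and 35.9 CPM in the controls and at 80.8 CPM in the library labelled *Vdr* cKO, while *Ncor1* lay between 319 and 338 CPM in all 3.

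The vitamin D enzymes were at or near 0. *Cyp24a1* (ENSMUSG00000038567.5, chr2:170482708-170497145, minus strand) is not listed for either control. Each matrix lists only genes with at least 1 count, so the gene is read as 0 there, and a floor of 3 counts would correspond to 0.16 and 0.105 CPM. Where the label is *Vdr* cKO it had 33 counts in 2 cells, of which 32 fell in 1 cell. *Cyp27b1* (ENSMUSG00000006724.12, chr10:127048250-127053006, plus strand) is likewise not listed for control 1, and had 2 counts in 2 cells of control 2 and 8 counts in 1 cell of the library labelled *Vdr* cKO. Neither enzyme reached a level at which libraries could be compared, and by the same floor, as 3 of 1480 cells, a count of 0 in control 1 allows a share of up to 0.203% of cells with a count. The 5′ end of *Cyp24a1* overlaps *Pfdn4* on the opposite strand.

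With the limit of a mean of 20 CPM over the 3 libraries, 6 of the 8 genes could be set against the other genes. None of the 6 was over 2-fold above or below both controls, whereas 4.77% of the 5843 genes at that level were, 3.56% above and 1.22% below. *Vdr* lay just inside that limit at 1.99-fold over control 1. *Rxrb* reached the mean of 20 CPM only through the library labelled *Vdr* cKO, since its control mean was 16.0 CPM. The shares over all genes and the lists below include genes admitted in this way. *Vdr* and *Rxrb* were above both controls, *Rxra*, *Med1* and *Ncor1* were below both, and *Hr* was between them. A place outside the range of the controls was common, since 71.5% of the genes had it, 40.2% above and 31.3% below. Neither edgeR nor DESeq2 called any of the 6 at an adjusted p under 0.05, where they called 2.79% and 3.01% of all genes, and at an unadjusted p under 0.05 each called 1, *Vdr*, beside 11.4% and 10.5% of all genes.

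The libraries also differed in markers of skin cell types. The summed level of 7 basal or outer root sheath markers was 4878 and 3422 CPM in the 2 controls, in that order, against 13271 CPM in the library labelled *Vdr* cKO, with 7 of 7 markers above both controls. *Krt14* alone was at 857, 611 and 2008 CPM. The 5 companion layer markers summed to 687, 813 and 2359.8 CPM and the 6 bulge markers to 73.8, 32.5 and 309 CPM, with every marker of both lists above both controls. Markers of spinous cells were lower in that library, at 67499, 77386 and 51483 CPM. Inner root sheath markers, at 0.585, 2.54 and 235 CPM, were near 0 in the controls and above both for 7 of 7 genes. The 8 hair shaft or matrix markers that a matrix lists summed to 2.71, 10.7 and 65.8 CPM, with 8 of 8 above both controls. Fibroblast markers summed to 8.72, 0.767 and 3.78 CPM. Every marker was also above both controls in the melanocyte list (4.10, 3.49 and 39.3 CPM) and the T cell list (26.8, 16.9 and 59.2 CPM). The same held for antigen-presenting markers (168, 242 and 326 CPM) and cycling markers (75.4, 55.8 and 227 CPM). Granular markers summed to 18693, 17614 and 14929 CPM, with 6 of 7 below both controls. Of sebaceous markers (2717, 1350 and 1450 CPM) 4 of 6 were below both, and of erythroid markers 3 of 4. The part of these differences in the levels of *Vdr* and *Rxrb* was not tested, and more *Vdr* per cell cannot be told apart from more cells with *Vdr* in the summed counts.

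The level of *Vdr* was therefore compared among cells in the same range of 1 keratin or cornified-envelope gene. Cells were binned by the share of their counts from *Krt14*, from *Krt10*, a keratin gene of spinous cells, or from *Lor*, which encodes the granular-layer protein loricrin. With the limits set over the 3 libraries together, 7 bins held at least 50 cells in every library. *Vdr* was higher in the library labelled *Vdr* cKO than in both controls in 7 of 7 of these bins. The bins share their cells, so these are not 7 separate results. A bin does not make the libraries alike. In the lower *Krt14* bin, *Krt14* itself was at 373 and 361 CPM in the controls against 610 CPM in the library labelled *Vdr* cKO. Cells without a *Krt14* count had median depths of 3825, 4138 and 2711.5 counts in the same order. For the bin counts of *Vdr* and the other members, the share over all genes was not computed. In whole libraries 40.2% of the genes were above both controls and 31.3% below both. When bins were taken from thinned cells, with limits set in each library, *Vdr* in the upper *Krt14* bin was at 36.6, 84.3 and 61.7 CPM, below control 2, and the share of cells with a count there was 1.22%, 3.61% and 4.06%.

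In cells without a *Krt14* count, *Vdr* was at 53.9 and 32.7 CPM in the 2 controls, in that order, against 56.1 CPM in the library labelled *Vdr* cKO. That library exceeded control 1 by very little there, and the log2 fold was 0.37. In the upper *Krt14* bin *Vdr* was at 16.7, 56.1 and 97.0 CPM, a log2 fold of 1.39. Of the 7 bins the controls differed most from each other in that one, and the larger fold there rests on the low value of control 1. Cells without *Krt14* among the thinned cells had *Vdr* at 56.0, 30.5 and 73.9 CPM, so that the order of the 2 bins was not kept. With the bins weighted alike in every library, the log2 fold was 0.88 over the *Krt14* bins, 0.99 over the *Krt10* bins and 1.07 over the *Lor* bins.

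*Rxra* showed the opposite order, below both controls in 7 of 7 bins, with log2 folds from -0.48 to -0.10. *Rxrb* was above both controls in 6 of 7 bins. In the upper *Krt14* bin it was between them, at 78.4, 40.0 and 40.5 CPM, a log2 fold of -0.54. *Hr* was above both in 4, *Med1* was below both in 3, and *Ncor1* was above both in 2 and below both in 3. When bins were taken from thinned cells, with limits set in each library, *Rxra* did not keep its order in every bin. In the upper *Lor* bin it was at 111.9 and 113.2 CPM in the controls against 113.5 CPM in the library labelled *Vdr* cKO. That library was between the controls in the lower *Krt10* bin (147, 84.9 and 122 CPM) and the lower *Lor* bin (167, 105 and 116 CPM). It was below both in every *Krt14* bin and in the upper *Krt10* bin.

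**Figure D2:**
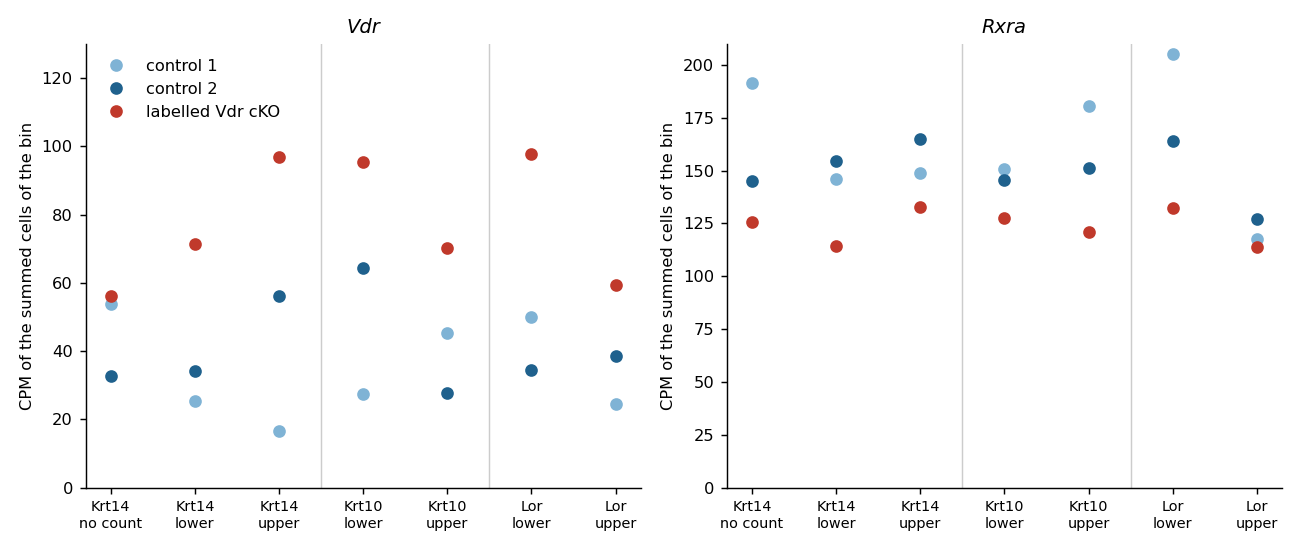
*Vdr* and *Rxra* in bins of cells by *Krt14*, *Krt10* or *Lor*, with limits set over the 3 libraries together. Each point is the CPM of the summed cells of 1 bin of 1 library. *Vdr* of the library labelled *Vdr* cKO is the highest point of every bin, from 56.1 to 97.9 CPM, and *Rxra* of that library is the lowest, from 114 to 133 CPM.

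Within each library, the genes were next followed from cells low in a differentiation marker to cells high in it. For *Krt14* the upper bin was set against cells without a count, and for *Krt10* and *Lor* the upper bin was set against the lower bin. *Vdr* had no common direction along *Krt14*: its log2 ratio was -1.63 in control 1, 0.70 in control 2 and 0.78 in the library labelled *Vdr* cKO. Since the controls went opposite ways, they do not settle whether *Krt14*-rich cells have more *Vdr*. Along *Krt10* the ratios were 0.78, -0.73 and -0.68, and the controls again disagreed.

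Along *Lor* the thinned shares gave 1 direction. Cells with a *Vdr* count made up 1.67% of the lower and 0.99% of the upper bin in control 1, 2.63% and 1.70% in control 2, and 5.81% and 3.11% in the library labelled *Vdr* cKO. Intervals of the 2 bins were apart in the last library, at 4.57 to 7.26% against 2.21 to 4.25%, and overlapped in both controls. The summed CPM did not give the same order in control 2, where *Vdr* was at 34.0 CPM in the lower and 39.5 CPM in the upper bin.

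*Ncor1* was lower among *Lor*-rich cells in every library by CPM and by thinned share. Its level in the lower and the upper bin was 356 and 246 CPM in control 1, 378 and 261 CPM in control 2, and 402 and 223 CPM where the label is *Vdr* cKO. The shares of thinned cells with a count were 12.1% and 8.05%, 14.02% and 10.1%, and 20.7% and 14.7%. With bins and levels both taken from thinned cells, control 2 went the other way by CPM, at 239.5 in the lower and 333 in the upper bin. Such a difference was common, since the thinned share was lower in the upper *Lor* bin of all 3 libraries for 32.6% of the genes and the CPM for 35.5%. Of the 6 genes, *Vdr*, *Med1* and *Ncor1* had it by share, and *Rxra*, *Med1* and *Ncor1* by CPM.

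*Rxrb* went the other way, with more cells with a count in the upper *Lor* bin in all 3 libraries, as had 10.8% of the genes. Its thinned share was 0.42% and 0.99% in the lower and the upper bin of control 1, 0.25% and 1.44% in control 2, and 1.45% and 2.21% in the library labelled *Vdr* cKO. Its share was also larger in the upper *Krt14* bin than in cells without *Krt14*, at 1.71% against 0.57%, 1.96% against 0.42% and 2.12% against 1.56%, as it was in all 3 for 25.4% of the genes. With the *Krt14* bins also taken from thinned cells, the shares were 1.83% against 0.66%, 0.60% against 0.66% and 1.59% against 1.42%. Control 2 thus did not keep the order. These shares rest on few cells: in the lower *Lor* bins of the controls 3 and 2 cells had a count.

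**Figure D3:**
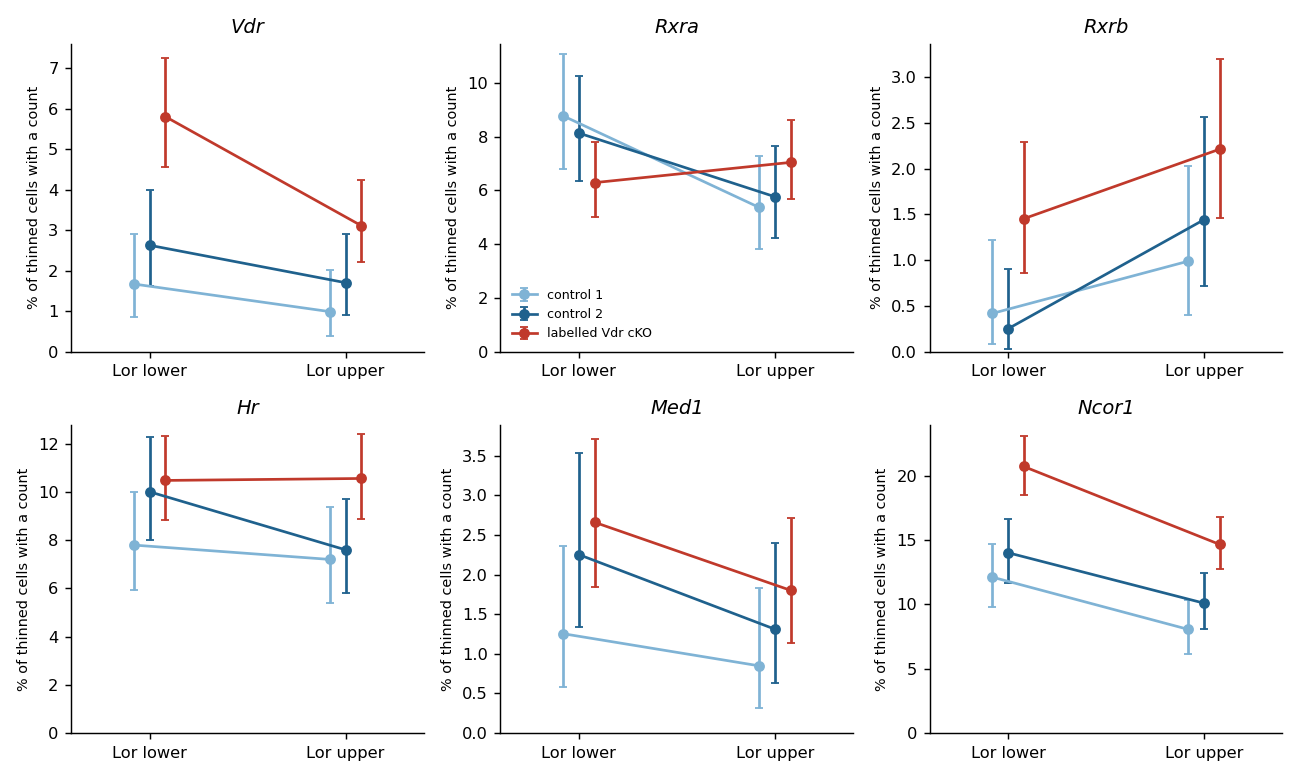
Percentage of cells with a count of each of 6 genes in the lower and the upper bin of *Lor*, each cell thinned to 1000 counts, with 95% exact Clopper-Pearson intervals. Lines join the 2 bins of a library. *Ncor1* is lower in the upper bin in all 3 libraries, at 14.7% against 20.7% in the library labelled *Vdr* cKO, and *Rxrb* is higher in the upper bin in all 3.

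Cells rich in the markers of 1 skin cell type were set against the rest of that library's cells. They are the 10% of cells with the largest share of counts from a marker list, or the cells with a count where fewer had one, which is a range of cells and not a cell type. *Ncor1* was lower in cells rich in granular markers, at 218 against 339 CPM in control 1, 93.4 against 372 CPM in control 2 and 142 against 349 CPM in the library labelled *Vdr* cKO. Lower levels in all 3 libraries were found there for 44.4% of the genes. *Hr* was lower in cells rich in sebaceous markers, at 28.3 against 153 CPM, 42.2 against 197 CPM and 111 against 188 CPM. A lower level in these cells of all 3 libraries was seen for 30% of the genes. Among thinned cells the *Hr* shares were 4.08% against 7.66%, 5.10% against 9.31% and 9.80% against 10.7%, so that in the library labelled *Vdr* cKO the share was nearly the same in both.

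*Vdr* in basal or outer root sheath-rich cells was at 21.7 against 41.8 CPM in control 1, 95.5 against 33.4 CPM in control 2 and 132 against 76.3 CPM in the library labelled *Vdr* cKO. The controls went opposite ways, and only 2 cells of control 1 and 7 cells of control 2 in these groups had a *Vdr* count. In the 263 bulge-rich cells of the library labelled *Vdr* cKO, *Vdr* was at 148 against 75.9 CPM and *Rxra* at 45.7 against 129 CPM. These are the cells of that library with the largest share of bulge marker counts. In the controls too few cells had a bulge marker count for that rule, so all cells with such a count were taken. The groups were thus set by different rules and are not like for like. In the 73 and 96 bulge-rich cells of the controls, *Vdr* was at 34.4 against 41.6 CPM and 31.3 against 36.5 CPM. *Rxra* was nearly level there, at 163 against 174 CPM and 151 against 150.4 CPM, and whether the libraries differ in this was not tested.

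*Vdr* was lower in cells rich in spinous markers in all 3 libraries, at 33.4 against 41.8 CPM, 7.52 against 39.96 CPM and 39.3 against 95.5 CPM. A lower CPM there was found for 28.6% of the genes and a lower thinned share for 18.4%. The thinned shares of *Vdr* were 0.68% against 1.36%, 1.24% against 2.30% and 4.28% against 4.38%, the last pair nearly equal. In all, 19 thinned cells of control 1 and 35 of control 2 had a *Vdr* count. The control values of *Vdr* in spinous-rich cells, 10% of a library, thus rest on very few cells. *Hr* was higher in cells rich in companion layer markers, at 159 against 140.2 CPM, 272 against 178 CPM and 213 against 176 CPM, as were 8.04% of the genes. Its thinned shares were 7.64% against 7.26%, 9.55% against 8.82% and 13.3% against 10.3%, an order that 13.4% of the genes had.

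Few thinned cells had a count of both the receptor and a partner. Of the 112 thinned cells with *Vdr* in the library labelled *Vdr* cKO, 12 also had *Rxra*, where the product of the 2 shares gives 7.39 cells, and 32 had *Ncor1*, where the product gives 20.0. *Ncor1* was found with *Vdr* in 4 cells of control 1 (product 1.89) and in 4 cells of control 2 (product 4.25). In control 1, *Rxra* was found with *Vdr* in 2 cells (product 1.36), and in control 2 in 0 cells (product 2.48), where the floor of 3 among 35 cells still allows a share of up to 8.57%. *Rxrb* was found with *Vdr* in no thinned cell of any library, where the products give 0.16, 0.28 and 2.10 cells. At 1000 counts per cell a transcript is easily missed, so these tallies do not measure how many cells held both. Doublets and free RNA also give joint counts.

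The genes most like each member over 9 bins in each of the 3 libraries were found by Pearson correlation of log2(CPM + 1), each library centred on its own mean. For *Vdr* they were *Cttnbp2* (r = 0.97), *Rps6ka3* and *Pkn2* (r = 0.95 each), and *Vdr* had r = 0.86 with *Hr*, 0.83 with *Med1*, 0.56 with *Rxra* and 0.11 with *Ncor1*. The 27 points share cells and libraries, and some bins hold under 50 cells, such as the cells without *Krt10*. Over the 7 bins with at least 50 cells in each library, a choice made after the data were seen, they were *Csrp1*, *Ccar1* and *Zc3h18* (r = 0.91, 0.90 and 0.89), and *Vdr* had r = 0.68 with *Rxra*, 0.56 with *Ncor1*, 0.11 with *Med1* and -0.18 with *Hr*, whose sign thus turned. The names shared between the 2 sets were 0 for *Vdr* and for each of the other 5 members.

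For the other members the same measure over all 27 points named *Nedd8*, *Psmc3* and *Ttc1* for *Rxra*, *Mri1*, *Ascc1* and *Ctdsp2* for *Rxrb*, and *Dohh*, *Adgra3* and *Pcm1* for *Hr*. It named *Mcmbp*, *Srsf1* and *Ckap4* for *Med1* and *Eef2*, *Rpl18* and *Rps29* for *Ncor1*. The first of each set had r = 0.99, 0.89, 0.98, 0.97 and 0.87 in that order. Over the 7 larger bins the first were instead *Cask*, *Pold3*, *Smarca4*, *Ipo7* and *Bod1l* (r = 0.89, 0.92, 0.86, 0.89 and 0.96).

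Other genes of the pathway were read from lists in the same way. Of 11 other nuclear receptors, several of which also pair with retinoid X receptors, 4 reached 20 CPM and all 4 were above both controls, with a median log2 fold of 0.45 beside 0.06 over all genes. For this and each list below, the shares over all 5843 genes were 40.2% above both controls and 31.3% below both. *Thra*, which encodes thyroid hormone receptor alpha, was at 30.2 and 25.2 CPM in controls 1 and 2 against 60.2 CPM in the library labelled *Vdr* cKO, an order kept for the values below. *Nr1h2*, the liver X receptor beta gene, was at 42.7, 24.3 and 50.1 CPM. *Rarg*, the retinoic acid receptor gamma gene, was at 141, 145 and 182 CPM, and *Ppard* at 31.9, 34.3 and 37.2 CPM. None of the 4 was over 2-fold from both controls, and *Thra*, as *Vdr*, came nearest.

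Of 15 coactivators and corepressors, 14 reached 20 CPM. The library labelled *Vdr* cKO was above both controls for 7 and below both for 4, with a median log2 fold of 0.09 and none over 2-fold from both. *Hdac3*, which encodes the deacetylase bound by the *Ncor1* product, was at 26.1, 30.3 and 52.2 CPM. *Baz1b*, a subunit gene of a remodelling complex that binds the receptor, was at 77.5, 72.8 and 127 CPM. The lowest folds were those of the coactivator genes *Ncoa2* (55.3, 43.5 and 35.5 CPM), *Crebbp* (165, 123 and 118 CPM) and *Ncoa1* (61.1, 65.7 and 54.5 CPM).

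Of 30 Mediator genes other than *Med1*, 16 reached 20 CPM, and the library labelled *Vdr* cKO was above both controls for 5 and below both for 6. The median log2 fold was -0.01 and none was over 2-fold from both. The highest were *Med21* (24.3, 13.6 and 34.1 CPM), *Med30* (19.9, 31.6 and 41.9 CPM) and *Med17* (23.1, 11.2 and 26.8 CPM), in all of which the controls differed widely. The control means of *Med21* and *Med17* were under 20 CPM, so both reached the limit only through the library labelled *Vdr* cKO. The counts of this list include such genes. *Med8* (186, 159 and 108 CPM), *Med4* (101, 100.1 and 64.3 CPM) and *Cdk19* (55.4, 35.9 and 29.3 CPM) were lowest.

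Of 18 vitamin D target genes, 6 reached 20 CPM, 3 above and 3 below both controls, with a median log2 fold of 0.54. Only *Igfbp3*, an insulin-like growth factor binding protein gene, was over 2-fold from both controls, at 29.5, 25.0 and 71.1 CPM. *Cst6*, a cystatin gene, was at 906, 2025 and 3227 CPM, and it stands also among the upper follicle markers, which summed to 1245, 2386 and 4467 CPM. The thioredoxin-interacting protein gene *Txnip* was at 305, 237 and 596 CPM. The retinoic acid hydroxylase gene *Cyp26b1* (51.8, 64.5 and 34.4 CPM), the cyclin-dependent kinase inhibitor gene *Cdkn1a* (2300, 2053 and 1485 CPM) and the E-cadherin gene *Cdh1* (309.8, 323 and 304 CPM) were below both controls. The calcium channel gene *Trpv6*, under the limit, had 5, 10 and 214 counts. The targets thus took no single direction.

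Of 5 hair cycle partners, *Sostdc1*, which encodes an inhibitor of Wnt and BMP signals, was over 2-fold above both controls, at 48.7, 56.3 and 175 CPM. *Dkkl1* was at 648, 688 and 397 CPM, the beta-catenin gene *Ctnnb1* at 161, 125 and 182 CPM, and the Wnt feedback gene *Axin2* at 51.9, 47.4 and 45.1 CPM. *Lef1* stayed under 2 CPM in all 3. Of 6 genes of vitamin D synthesis and transport only *Dhcr7*, whose product turns the precursor 7-dehydrocholesterol into cholesterol, reached 20 CPM, at 109, 110.5 and 94.4 CPM.

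**Figure D4:**
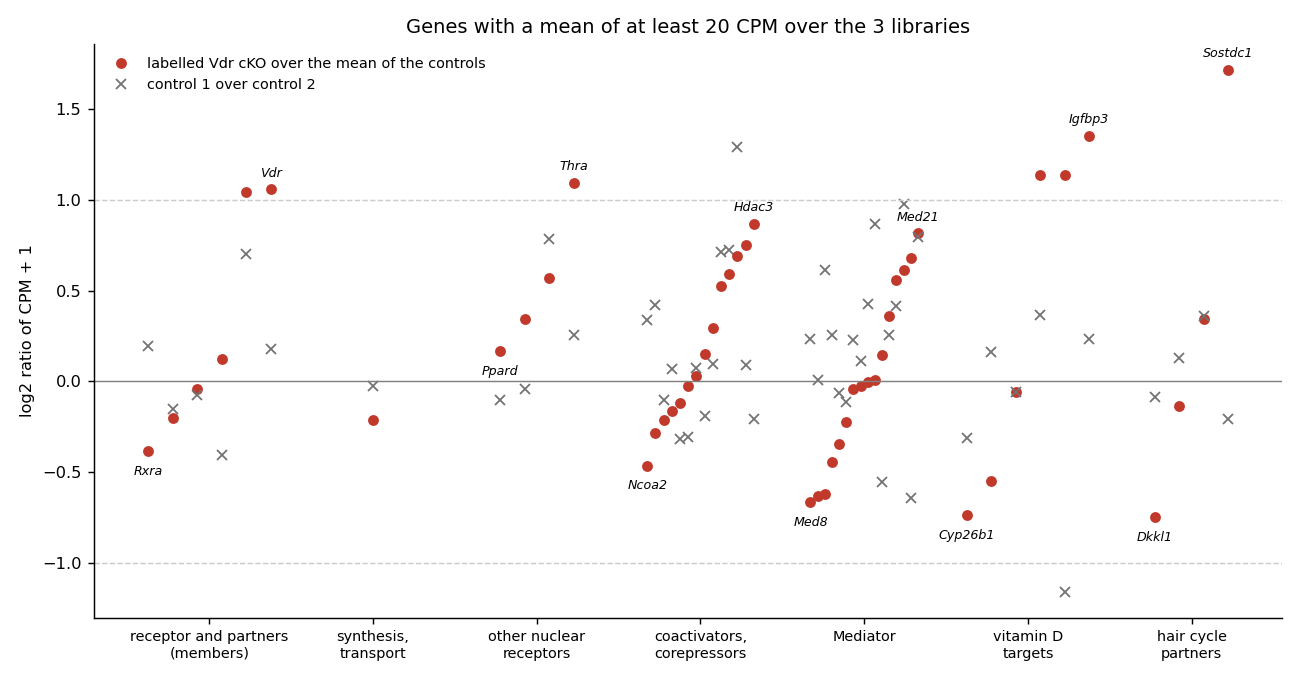
Log2 ratio of CPM + 1 for the members and 6 lists of pathway genes with a mean of at least 20 CPM over the 3 libraries. Filled points set the library labelled *Vdr* cKO against the control mean, crosses are control 1 over control 2 for the same gene, and dashed lines mark 2-fold. *Sostdc1* and *Igfbp3* are the highest points, and many crosses lie as far from 0 as the points.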

How the data were processed

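The 3 libraries hold droplet data, with a barcode for each cell. The matrices the authors deposited hold unnormalized counts per gene and barcode; the labels name mm10. The aligner, annotation and counting rule are not given in the sources used here, nor whether PCR copies were collapsed. Of values above 0, 14.5%, 22.2% and 26.9% were 1. Kept cells held 18802408, 28690129 and 30954897 counts in the controls and the *Vdr* cKO-labelled library, and 27, 28 and 20 of them share a barcode with another library. Doublets were not removed.

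Counts were summed over cells, scaled to CPM and compared as log2 with 1 CPM added. No test was the main result, because 1 library carries the *Vdr* cKO label and cells are not replicates. Genes named are the members, the 3 highest and 3 lowest of each list, genes over 2-fold from both controls and the 3 most alike; *Trpv6* and *Lef1* were named after their values were seen. The members and lists were chosen with earlier results of these data known. Alternatives used edgeR 4.0.16 and DESeq2 1.42.0 in R 4.3.3; other steps used Python 3.11.15, numpy 2.4.6 and scipy 1.17.1. The fold calls on library sums and the correlation of patterns were tested on simulated data, and the thinning on the counts of control 1. The bins, the marker-rich groups and the joint tallies were not tested in this way. The values of 1 gene of the coactivator and corepressor list are not reported here.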

Additional observations from a re-analysis of the deposited data

Results flagged for a closer look

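The ratio of *Hr* between the upper and the lower *Krt10* bin was -0.092 (log2) in the library labelled *Vdr* cKO, against 0.26 in control 1 and 1.05 in control 2. It was singled out because it was below 0 there and above 0 in both controls; the difference was not tested. The thinned share of cells with *Hr* was higher in the upper bin in all 3 libraries, at 8.36% against 6.27%, 12.1% against 5.80% and 11.1% against 10.1%. Such an order was common, since 37.9% of all genes had it. Scaled to the gene detections of the thinned cells of each bin, *Hr* stood at 274 against 232 and 326 against 192 in the controls. In the library labelled *Vdr* cKO it stood at 260 against 263, so that the order was not kept there.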

How the results depend on the processing

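*Vdr* stayed above both controls under all 12 alternatives that kept both controls, with log2 folds from 0.75 to 1.22 over all 14. It was 0.75 as the mean over cells of each cell's CPM, 0.78 in cells thinned to 1000 counts, 0.91 with 10 CPM added and 1.22 without the cell with the most counts of the gene in each library, an alternative chosen after seeing the data. Without a control replicate it was 0.98 to 1.15. *Rxra* stayed below and *Rxrb* above both controls in 12 of 12. The number of members over 2-fold from both controls, 0, became 1 by the mean over cells and by thinning, and 2 without the largest cell, with no limit on the level (where the enzymes entered) and at 1.5-fold. Of all 5843 genes, 14.3% were over 1.5-fold from both controls, 9.52% above and 4.74% below. Without a control replicate the number of members was 0 to 2: against control 2 alone *Vdr* and *Rxrb* passed. Apart from the 1.5-fold limit, the share over all genes was not computed for the settings that changed this number. Whether 1 or 2 members is unusual there is therefore not known.

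Signs changed as follows. *Med1* went to 0.81 by the mean over cells, 0.073 counted once per cell and 0.90 in thinned cells. *Ncor1* went to 0.14, 0.20 and 0.15 under the same 3, 0.040 with limits of 300 to 4000 genes and 5% mitochondrial counts, and 0.024 without the largest cell. The log2 ratio of the *Rxra* share went to 0.069 at 500 counts and 0.14 unthinned. The mean *Rxrb* ratio over the *Krt14* bins went to -0.22 when bins were taken from thinned cells. The log2 fold of *Hr* was below 0 under 1 of 14 alternatives, at -0.063. The cause was not tested. No paired analysis was possible because the groups share only 1 replicate number. With 1 library labelled *Vdr* cKO, and few cells with a count per bin, depth and replication limit every comparison.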

Other observations

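Cells in the upper *Krt14* bin that were also low in or without *Lor* numbered 145 in control 1, 151 in control 2 and 565 in the library labelled *Vdr* cKO. In them *Hr* was at 53.5 CPM against 152 CPM in the other cells of control 1, 116 against 195 CPM in control 2 and 173 against 181 CPM in the library labelled *Vdr* cKO. *Vdr* was at 14.9 against 43.7 CPM, 57.4 against 33.6 CPM and 109.7 against 71.7 CPM in the same order, so that the controls differed in direction. Thinned cells with a *Vdr* count had a median of 3881 counts before thinning in control 1, 5069 in control 2 and 5309 where the label is *Vdr* cKO, against 4246, 4897.5 and 4125 in those without. Their *Lor* level was 10947 against 13329 CPM, 16200 against 13289 CPM and 7375 against 10339 CPM, so that the controls differed in direction here too.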
